A study of Mus musculus with 2 samples.

Results

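The Tie receptors and angiopoietins were followed in Tie2Cre lineage cells that had been sorted from embryonic mouse hearts (day 12.5). The set holds 4 genes, Tek, Tie1, Angpt1 and Angpt2, taken by symbol from 18193 genes on the array, and every probe set that the platform annotation gives to exactly 1 of them was read. There were 6 such probe sets, 1 each for Tek and Tie1 and 2 each for Angpt1 and Angpt2. Mutant cells came from Tie2Cre;Tbx20 loxP/- embryos, with a floxed and a null allele of Tbx20, which encodes a T-box factor of the embryonic heart. Control cells came from Tie2Cre;Tbx20 +/loxP embryos, which have a floxed and a working allele. All embryos thus carried the Cre transgene and a floxed Tbx20 allele. There was 1 array for each genotype, so no value has a replicate, no test between genotypes was possible, and genotype cannot be told apart from any other difference between the 2 preparations.

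Tek encodes Tie2, a receptor tyrosine kinase of endothelial and endocardial cells, and the Tek promoter drives the Cre of the Tie2Cre transgene. Tie1 is a closely related receptor without a strong ligand of its own, which pairs with Tie2 and alters its signalling. Angpt1 is the activating ligand of Tie2 and comes mostly from cells around the endothelium, in the embryonic heart from the myocardium. Angpt2 is made by endothelial cells themselves and blocks or weakly activates Tie2 according to context. Mouse embryos without Tek or Angpt1 die with a poorly developed endocardium and few trabeculae. Tie2Cre marks endothelium, endocardium, the cushion mesenchyme that descends from it and also blood cells. Blood cells positive for CD41, CD45 or Ter119 were gated out during the sort, per the labels' protocols. Whether embryos were pooled is not given in the sources used here.

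The promoter windows of both receptors are shown, since the reference used here held none for Angpt1 or Angpt2. Activity of the Tek promoter is what defines the sorted lineage. Each window runs from 250 bases before to 50 bases after the RefSeq start site on build GRCm38.p6, in the direction of transcription. That of Tek lies at chr4:94739039-94739338 on the + strand and that of Tie1 at chr4:118489800-118490099 on the - strand. Capitals mark GGAA, the core recognised by ETS factors, or its reverse complement TTCC.
Tek: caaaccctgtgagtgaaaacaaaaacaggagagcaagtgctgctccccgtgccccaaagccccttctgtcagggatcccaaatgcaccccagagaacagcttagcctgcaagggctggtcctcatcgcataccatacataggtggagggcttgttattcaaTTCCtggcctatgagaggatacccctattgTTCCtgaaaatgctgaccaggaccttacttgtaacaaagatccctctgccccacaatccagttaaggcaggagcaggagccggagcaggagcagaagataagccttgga
Tie1: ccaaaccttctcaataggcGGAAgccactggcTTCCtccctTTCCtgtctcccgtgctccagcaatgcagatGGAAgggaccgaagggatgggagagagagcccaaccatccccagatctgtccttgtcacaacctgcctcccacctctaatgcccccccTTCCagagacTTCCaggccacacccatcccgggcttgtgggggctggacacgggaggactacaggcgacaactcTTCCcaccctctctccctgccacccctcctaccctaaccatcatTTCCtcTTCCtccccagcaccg
The Tek window holds 2 matches to the core and the Tie1 window 9, counted on both strands. Over 32851 windows of the same length, 96.0% hold at least 1 match, 84.6% at least 2 and 1.59% at least 9, with a median of 3. AGGTGT, a core bound by T-box factors, searched on both strands, had 0 matches in either window and was found in 13.7% of all windows. These are matches of letters and not measured binding, and the transgene's own promoter sequence was not used here.

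Tek gave strong and nearly equal signal on both arrays. Its probe set, 1418788_at, read 7576 in mutant cells and 7653 in control cells. The mutant signal was 99.0% of control, a log2 ratio of mutant over control of -0.01. The sign of this small ratio turned to 0.02 after quantile normalization and 0.04 after loess on brightness. Among the 10665 genes above the floor on both arrays, whose median log2 ratio was -0.01, the ratio of Tek lay at percentile 48.8. The floor is each array's median with array controls left out, 82.4 for mutant and 91.3 for control cells, and signals under it were set to it.

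Tie1 was likewise strong on both arrays. Its probe set, 1416238_at, read 4594 in mutant cells and 4325 in control cells. The mutant signal was 106% of control, a log2 ratio of 0.09, at percentile 61.8 of measured genes. With no replicates, the error that can be set beside these ratios is the disagreement between probe sets of 1 gene. Its SD on the log2 scale was 0.24 over 1454 genes with a mean signal over 1000, and the ratios of Tek and Tie1 were 0.06 and 0.36 times that SD. This measure covers probe error only, since such probe sets read the same RNA. Neither receptor differed between the 2 arrays by more than probe sets of a bright gene differ among themselves.

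Angpt1 gave weak signal that was lower on the mutant array in both of its probe sets. The brighter one, 1421441_at, read 115 in mutant cells and 191 in control cells. Both values were above the floor, and the difference was 1.66-fold, a log2 ratio of -0.73. The dimmer one, 1439066_at, read 51.7 in mutant cells, under the floor, and 115 in control cells, above it. Against the floor of the mutant array this gives a signal at least 1.39-fold lower in the mutant. The ratio of the brighter probe set was at percentile 3.76 of all measured genes, but the spread is wider for dim genes. Of 1349 measured genes with a mean signal under 200, 10.2% were at or below it, and the SD between probe sets of 1 gene in that class was 0.49, so that the ratio of Angpt1 was 1.48 times that SD. In the same class 58.8% of genes were lower in the mutant. The lower Angpt1 signal is thus within the range that dim genes often reach on these arrays.

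Angpt2 was at or below the limit of measurement. Its brighter probe set, 1448831_at, read 52.9 in mutant cells, under the floor, and 107 in control cells, just above the floor of 91.3. The mutant signal was therefore at least 1.30-fold lower, counted against the mutant floor. The other probe set, 1459636_at, read 19.6 in mutant cells and 31.2 in control cells, under the floor on both arrays, and gives no fold. Of the 423 genes that passed the floor only on the control array, 172 had a smaller bound than Angpt2 and the median bound was 1.37-fold. A further 465 genes passed it only on the mutant array. Values of this size are near the border between signal and background, where a gene can pass or miss the floor by a small difference.

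**Figure D1:**
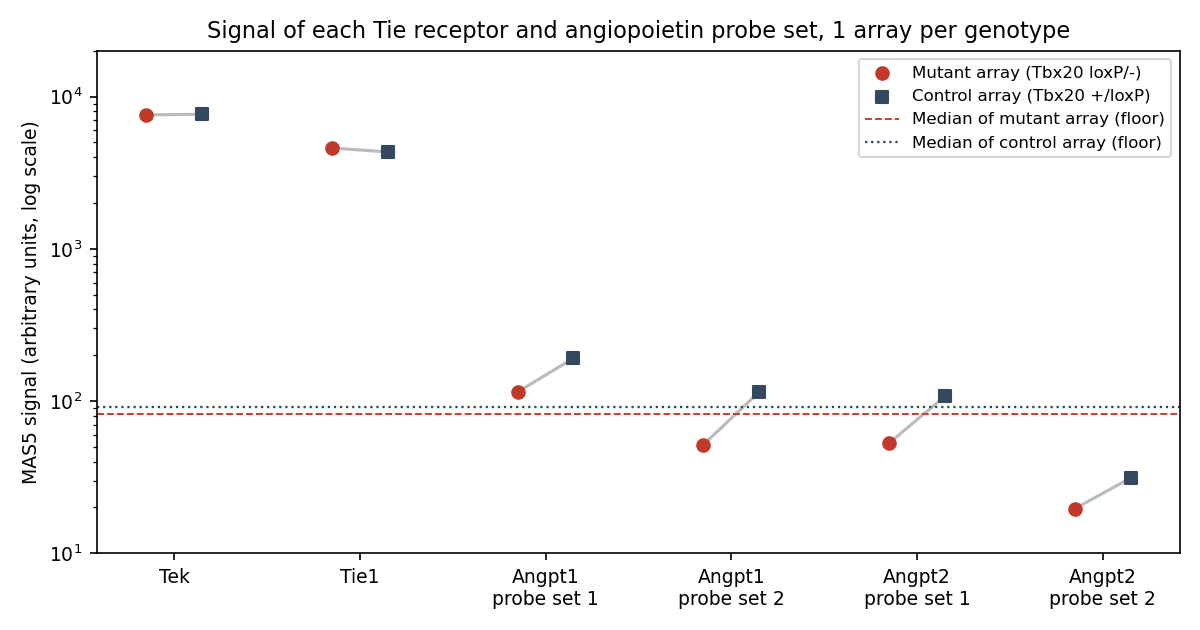
Signal of the 6 probe sets on the mutant array (circles) and the control array (squares), on a log axis in arbitrary MAS5 units, with 1 array per genotype and the median of each array as a line. Tek and Tie1 read at least 4325 on both arrays with nearly level connecting lines, whereas the 4 angiopoietin probe sets read at most 191. Of these, 3 had a lower signal in the mutant and passed a floor line on at least 1 array, 2 of them only on the control array. The second Angpt2 probe set lies under both lines.

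By role, both receptors were within 0.1 of equal signal on the log2 scale. Of the 4 ligand probe sets, 1, the brighter one of Angpt1, passed the floor on both arrays and was lower in the mutant. Another 2 passed it only on the control array. Under the floor rule such a bound can only come out lower, so these 2 add no evidence of direction. The remaining Angpt2 probe set gives no direction, since both of its values were background. Of all 34945 single-gene probe sets, 52.4% had a lower deposited signal in the mutant array. Both probe sets of Angpt1 were lower, and of 4695 genes with exactly 2 probe sets, 30.0% had both lower. Probe sets that passed the floor only on the control array, as 1 of each ligand did, made up 2.82% of all single-gene probe sets.

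None of the 4 genes reached 2-fold by its brightest probe set. Of the 10665 measured genes, 1.46% were at least 2-fold lower and 0.647% at least 2-fold higher. Among the 4347 genes over a mean signal of 1000, which include both receptors, these shares were 0.621% and 0.138%, and among the 1349 under 200, which include Angpt1, 4.52% and 1.41%. In these sorted cells, fewer cells that express a gene and less of its RNA per cell cannot be told apart.

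**Figure D2:**
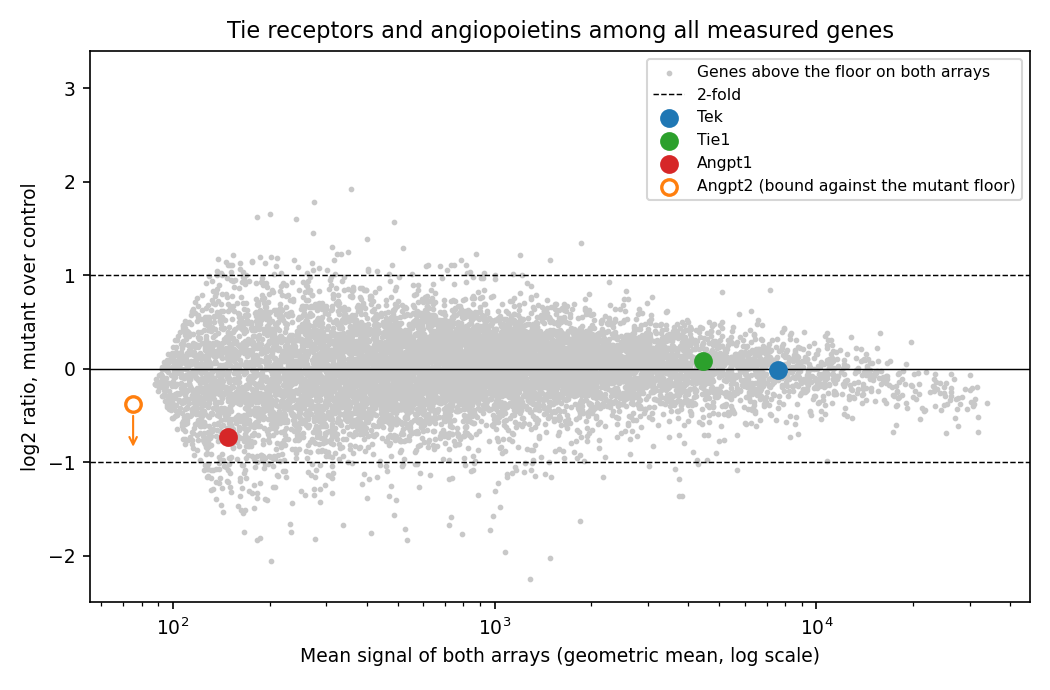
Log2 ratio of mutant over control against the mean signal of both arrays (log axis) for 10665 genes, with dashed lines at 2-fold and the Tie receptors and angiopoietins in colour. Tek and Tie1 lie near 0 among bright genes, Angpt1 lies at -0.73 in the wide cloud of dim genes, and the open point with an arrow is the bound for Angpt2.

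Tbx20 itself, the targeted gene, read 6416, 5262 and 4245 in mutant cells and 7638, 6128 and 7050 in control cells over its 3 probe sets. Which exons are removed by Cre is not stated in the labels, so these signals may not report the deletion. The 3 probe sets stood at 84.0%, 85.9% and 60.2% of control.

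The wider Tie pathway was read from a list of 28 genes, of which 27 had a probe set here and 21 counted as measured. Of these, 11 were lower and 10 higher in the mutant, with a median log2 ratio of 0.00 beside -0.01 over all measured genes. In all, 51.0% of measured genes were lower. When each gene was given the median of its probe sets, 8 were lower and 13 higher. By the 2-fold rule, 1 member was lower and 0 were higher, beside 1.46% and 0.647% of all measured genes. That member, Itgb3, had a mean signal under 200, a class in which 4.52% were at least 2-fold lower.

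The receptor phosphatase Ptprb, known as VE-PTP, which removes phosphate from Tie2 and holds its activity down, was lower in each of its 3 probe sets. They read 2218, 1214 and 592 in mutant cells and 3179, 1637 and 1269 in control cells. Their log2 ratios were -0.52, -0.43 and -1.10, so the brightest stood at 69.8% of control. Of 1330 genes with 3 measured probe sets, 15.6% had all 3 lower. Ptprb therefore had lower signal in the mutant while its substrate Tek did not differ beyond probe error.

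Ligands and extracellular partners other than the 2 angiopoietins gave little signal. Angpt4, the third mouse angiopoietin, and Lect2, a protein reported to bind Tie1, were under the floor on both arrays. Svep1, a matrix protein that acts through Tie1 in lymphatic vessels, read 111 in mutant cells and 52.1 in control cells, at least 1.21-fold higher against the control floor. Of the angiopoietin-like genes, which share the angiopoietin fold but do not bind Tie2, Angptl1, Angptl4, Angptl6 and Angptl7 were measured, with a median log2 ratio of 0.00. Angptl6 was the highest of them at 0.48, with 246 in the mutant and 176 in the control, and Angptl7 the lowest at -0.27.

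Integrins bind angiopoietins and can associate with Tie2. Itgb3, the beta 3 subunit, read 99.6 in mutant cells and 283 in control cells, a log2 ratio of -1.51, from a single probe set that was close to the floor in the mutant. Its partner Itgav, the alpha v subunit, was at -0.21, with other probe sets up to 0.39. Itga5 was at -0.07 and Itgb1 at 0.30, and the 4 Itgb1 probe sets ranged between -0.31 and 0.30. Apart from Itgb3 the probe sets of these integrins lay on both sides of 0.

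Adaptors carry the signal from the phosphorylated receptor. Grb2 read 1292 in mutant cells and 931 in control cells, a log2 ratio of 0.47, with its second measured probe set at 0.44. Shc1 was at 0.28, Nck1 at 0.07, Crk at 0.01 and Tnip2, which encodes the Tie2-binding protein ABIN-2, at -0.33. Grb7 and Grb14 passed the floor only on the control array, at least 1.46-fold and at least 1.15-fold lower in the mutant. Dok2, an adaptor docked by Tie2, was under the floor on both arrays.

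The signalling enzymes downstream lay on both sides of 0. Akt1, the survival kinase activated by Tie2, read 1923 in mutant cells and 2123 in control cells, at -0.14. The phosphoinositide 3-kinase genes Pik3ca, Pik3r1 and Pik3r2 stood at -0.10, 0.00 and 0.31, the phosphatase gene Ptpn11 at 0.12 and the Ras regulator gene Rasa1 at 0.37. The 3 measured Pik3ca probe sets were all lower, down to -0.62, as in 15.6% of genes with 3 measured probe sets. Those of Pik3r1 reached up to 0.62. Probe sets of Akt1, Pik3r1, Ptpn11 and Rasa1 had both signs.

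Foxo1, the transcription factor that Akt keeps out of the nucleus and that drives Angpt2, was at 0.06 in its brightest probe set. Its 4 probe sets read 3316, 2481, 1782 and 203 in mutant cells and 3187, 1462, 1626 and 125 in control cells. All 4 were higher in the mutant, with ratios of 0.06, 0.76, 0.13 and 0.70 in that order. Those of 0.06 and 0.13 were within the SD of 0.24 between probe sets of a bright gene, and that of 0.76 was beyond it. That of 0.70, from a probe set with a mean signal under 200, was beyond the SD of 0.49 for that class. The probe sets of Foxo1 thus shared a direction but not a size. The share of genes with all 4 probe sets higher was not computed. Foxo3 read 2111 in mutant cells and 3207 in control cells, at -0.60, and its other 2 probe sets were at -0.29 and -0.16. All 3 were lower in 15.6% of genes with 3 measured probe sets. Klf2, a flow-responsive factor that Tie2 signalling can also raise, read 3146 in mutant cells and 4315 in control cells, at -0.46. Nos3, the endothelial nitric oxide synthase, read 2351 in mutant cells and 1836 in control cells, at 0.36. Birc5, which encodes the survival factor survivin, was at -0.15. Klf2 thus read lower and Nos3 higher on the mutant array, each by a single probe set, beside the SD of 0.24 for bright genes. Without replicates, a difference of either gene between genotypes was not tested.

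**Figure D3:**
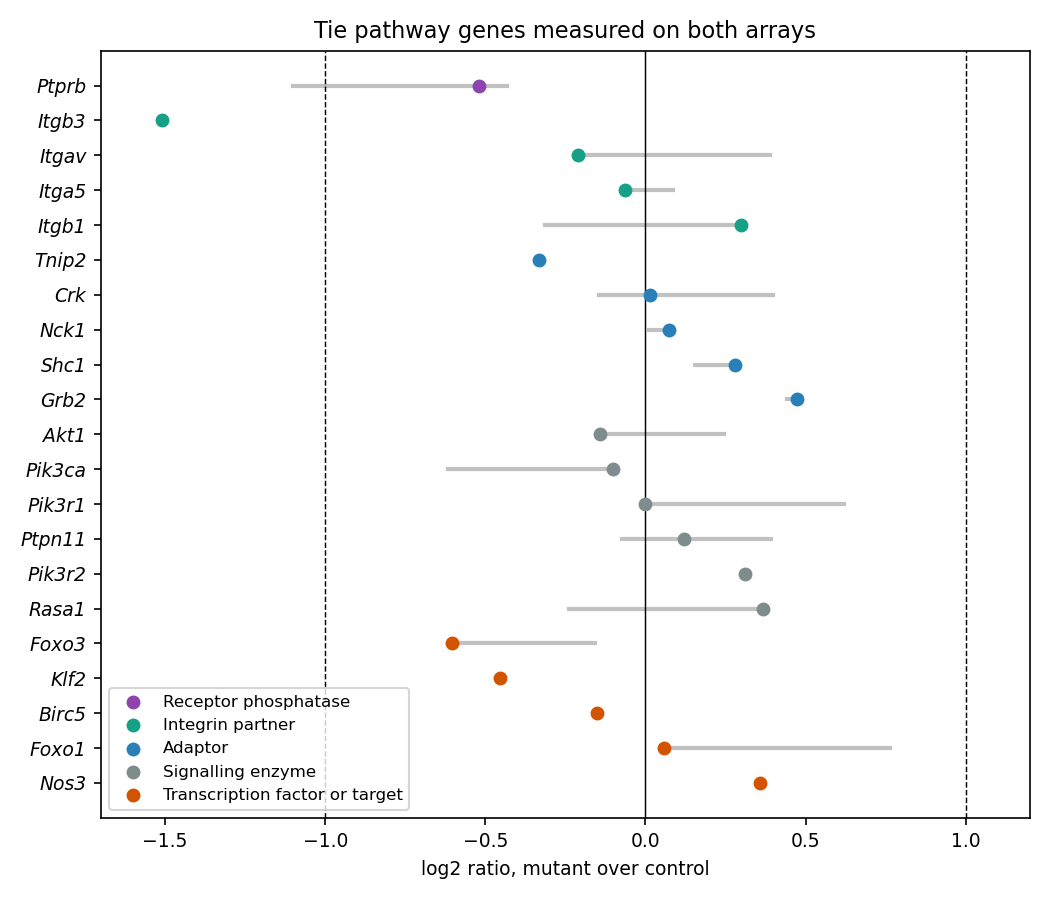
Log2 ratio of mutant over control for the 21 Tie pathway genes measured on both arrays, with the brightest probe set as a point coloured by role and the range over the gene's measured probe sets as a bar. The points lie on both sides of 0, the 3 probe sets of Ptprb are all below it, and only Itgb3 has its point past the dashed 2-fold line.

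ETS factors bind the promoters of endothelial genes, Tek and Tie1 among them. All 8 listed were measured, with a median log2 ratio of -0.07. Etv2, which starts the endothelial programme in the early embryo, read 841 in mutant cells and 283 in control cells, at 1.57. This rests on a single probe set. Of the 4969 measured genes with a mean signal of 200 to 1000, 0.885% were at least 2-fold higher. The other 7 lay between -0.35 for Ets1 and 0.08 for Ets2, and the 4 Ets1 probe sets reached up to 0.46. Tek and Tie1 were at -0.01 and 0.09 on the same arrays. Their windows hold the ETS core, as do 96.0% of all windows. An effect of ETS factors on either receptor was not tested.

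The label of the sorted cells was checked against marker genes. All 22 pan-endothelial markers were measured on both arrays, 11 lower and 11 higher in the mutant, with a median log2 ratio of -0.01. Ramp2, Cdh5 and Emcn were the brightest, and Cdh5, the endothelial cadherin, read 10975 in mutant cells and 10886 in control cells. All 12 endocardial markers were also measured, 4 lower and 8 higher, with a median of 0.14. Their ratios were spread between -1.67 for Bmp6 and 1.16 for Irx3, which are named here after their values were seen. Of this pan-endothelial list, the genes whose ratio over the 2 arrays came closest to Tek were Flt1 and Cdh5, within 0.03. Closest to Tie1 were Esam and Emcn, within 0.02, and closest to Angpt1 were Robo4 and Cldn5, within 0.04, the lowest of the list at -0.72 and -0.70. Tek and Tie1 thus lay inside the range of the pan-endothelial genes, with 11 and 16 of the 22 below them. Angpt1 lay below all 22, but by only 0.01 from Robo4. Angpt1 was inside the wider range of the endocardial markers and that of the cushion mesenchyme markers, from -2.02 to 0.59. It was also inside that of smooth muscle and pericytes, from -1.27 to 0.58, and of erythroid and megakaryocytic markers, from -1.10 to 0.46. Its ratio therefore points to no single cell type.

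Markers of myocardium, of smooth muscle and pericytes, and of cushion mesenchyme stand beside the lower Angpt1 signal as follows. Of 16 myocardial markers 13 were measured, 4 lower and 9 higher, with a median of 0.08 and a summed signal of 30133 in mutant cells and 27110 in control cells. Ryr2 and Nkx2-5 were under the floor on both arrays, while Myl7 read 6753 in mutant cells and 3811 in control cells, at 0.83, and Tnni1 read 5654 in mutant cells and 7257 in control cells, at -0.36. Without Myl7, a step added after seeing the data, the sums were 23381 in mutant cells and 23299 in control cells. Of 10 smooth muscle and pericyte markers 9 were measured, 6 lower and 3 higher, with a median of -0.16 and a summed signal of 11206 in mutant cells and 13062 in control cells. The smooth muscle myosin gene Myh11 was under the floor on both arrays. Of 14 cushion mesenchyme markers 13 were lower, with a median of -0.51 and a summed signal of 58289 in mutant cells and 74936 in control cells. The mesenchymal and smooth muscle sums were thus lower in the mutant, with no gene left out of them. The myocardial sum was higher with Myl7 and nearly equal without it. That remainder still includes Tnni1, a bright marker that was lower, while 9 of the 13 measured myocardial markers were higher. The part of these cells in the Angpt1 signal was not tested.

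Markers of other cell types differed as well. All 10 measured epicardial markers of 12 were higher in the mutant, with a median of 0.74 and a summed signal of 10146 in mutant cells and 5965 in control cells, and Msln was under the floor. Of 9 erythroid and megakaryocytic markers 5 were measured, 4 of them lower, with a median of -0.97 and a summed signal of 7776 in mutant cells and 11793 in control cells. The embryonic globin gene Hbb-y made up most of both sums, at 6606 in mutant cells and 9843 in control cells, so globin signal was strong on both arrays. Gata1 and Itga2b, which encodes CD41, were under the floor. Of 12 macrophage markers, a cell type of which some members express Tek, 2 (Lyve1 and Cd68) were measured on both arrays, both higher in the mutant, and 7, among them Ptprc, which encodes CD45, were under the floor on both. The other 3 passed the floor on 1 array each. Csf1r read 80.6 in mutant cells and 144 in control cells, at least 1.74-fold lower, and Cx3cr1, named after its value was seen, read 47.8 in mutant cells and 226 in control cells, at least 2.74-fold lower. Mrc1 passed it only on the mutant array, at least 1.26-fold higher. The summed signal of the 12 was 986 in mutant cells and 985 in control cells. Lyve1 alone made up the largest part of both sums, at 481 in mutant cells and 402 in control cells. Its 2 measured probe sets had both signs, at -0.17 and 0.26, so these sums rest largely on 1 gene. The part of these cell types in the signals of the Tie genes was not tested.

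**Figure D4:**
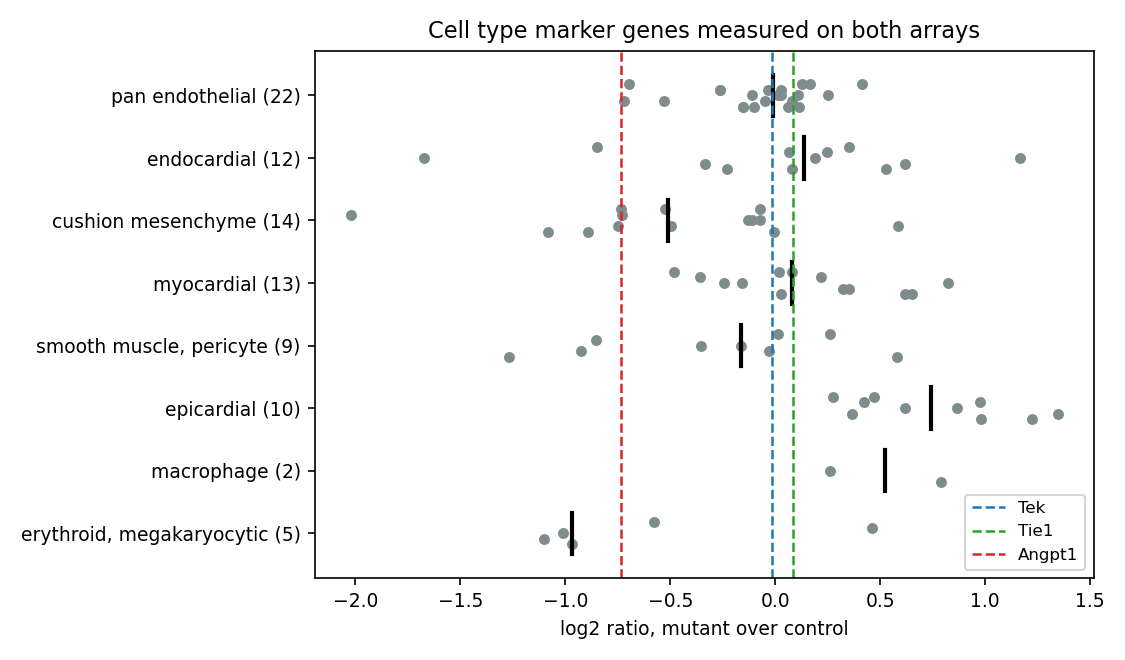
Log2 ratio of mutant over control for marker genes measured on both arrays, 1 row per cell type with the number of genes in brackets and the median as a black bar. Dashed lines give Tek, Tie1 and Angpt1, of which the receptors lie by the pan-endothelial median of -0.01. Angpt1 lies just below the lowest pan-endothelial gene. It is inside the ranges of the endocardial, cushion mesenchyme, smooth muscle and pericyte, and erythroid and megakaryocytic genes.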

How the data were processed

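Biotin-labelled RNA of sorted Tie2Cre lineage cells was hybridised to Affymetrix 1-colour arrays, 1 for each genotype. The deposited values are linear signal intensities, with 1 value for each probe set, and MAS5 was used per the submitters' processing notes. MAS5 combines perfect-match and mismatch probes and scales each array by a single factor, so differences that depend on brightness remain and dim ratios are noisy. No version, setting or genome build is given in the sources used here. No detection calls were used.

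Of 45037 non-control probe sets, 34945 named 1 gene in the platform annotation and 34741 of those had a gene identifier in the RefSeq table. Signals were used as deposited, set to a floor at each array's median and put on the log2 scale. A gene took its brightest single-gene probe set, and counted as measured where that lay above the floor on both arrays. With a value on 1 array only, the fold is a bound against the other array's floor. The size rule was 2-fold, and the precision is limited by the number of arrays. No p-value was computed.

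Named genes were all members of the Tie pathway, angiopoietin-like and ETS lists, Tbx20, the 3 brightest markers of a cell type, markers under the floor, and the 2 pan-endothelial genes closest in ratio to each member. Not all of them are printed. Members and lists were chosen with earlier results of these data known. Some listed genes are not reported here. Alternatives covered scaling, floors, a pseudocount, the choice of probe sets and the fold. The steps were tested on simulated data. Python 3.11.15, pandas 2.3.3 and statsmodels 0.14.6 were used.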

Additional observations from a re-analysis of the deposited data

How the results depend on the processing

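Tie1 stayed higher under all 8 alternatives (0.07 to 0.11) and Angpt1 lower under all 7 that gave a value (-0.75 to -0.52). All alternatives reuse the same pair of arrays, and several leave these ratios unchanged. The counts show dependence on processing and add no evidence of direction. Tek lay between -0.03 and 0.04, positive after quantile normalization and loess. Angpt2 gave a value in 5, all from the same pair of readings. It stood at -0.40 to -0.24 as a bound, whose sign the floor rule fixes, and at -0.55 with a pseudocount. With a lower floor, the 25th percentile, both of its signals counted as measured, at -1.02, just past 2-fold. With a higher floor, the 75th percentile, neither angiopoietin gave a value, and loess and the median over measured probe sets gave none for Angpt2. The median of the Tie pathway list moved between -0.08, as a mean, and 0.07, with the median over probe sets. Of all genes, 537 were at least 2-fold lower and 233 higher with the lower floor, 34 and 12 with the higher floor, 68 and 14 with a pseudocount, and 705 and 466 at 1.5-fold, against 156 and 69. No paired analysis was possible because each genotype had 1 array. The angiopoietin signals lie so close to the floor that their size is not fixed by these arrays.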
